A study of Mus musculus with 8 samples.

Results

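The interferon regulatory factors are a family of transcription factors that switch on the interferon genes and many of the genes that interferon induces. Of the 24421 genes in the files, 8 members were analysed here: Irf1, Irf2, Irf3, Irf4, Irf5, Irf7, Irf8 and Irf9. They were chosen by family and gene symbol, and all 8 were found. A filter on low values left 7 of the 8 for testing. Irf4 did not pass it.

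The libraries came from primary calvarial osteoblastic cells, the bone-forming cells that enzymes release from the skulls of mouse pups aged 0 to 3 days. Cells of WT pups and of Def6-/- littermates, both on the C57BL/6 background, were expanded without ascorbic acid and sampled at day 0 or after 12 days in osteogenic medium, which contains ascorbic acid and β-glycerophosphate. There were thus 4 groups (WT day 0, Def6-/- day 0, WT day 12 and Def6-/- day 12), each with 2 libraries of poly-A RNA, and no other treatment. Def6 was deleted in all cells of the Def6-/- mice, so any other cell type in these cultures lacked it as well. The study calls the 2 libraries of a group biological replicates. Whether they came from separate pups is not given in the sources used here, so that p-values measure the spread between these libraries. Bulk RNA does not tell more cells of a type from more RNA per cell.

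All family members share a DNA-binding domain that recognizes GAAA repeats in the promoters of their targets. Irf3 and Irf7 are activated by kinases below the sensors of foreign nucleic acids and drive the type I interferon genes. Secreted interferon then acts through its receptor and a complex that holds Stat2 and Irf9, which raises many genes, Irf7 among them, and closes a positive loop. Irf1 activates and Irf2 antagonizes an overlapping set of targets. Irf5 acts below Toll-like receptors, and Irf8 and Irf4 direct the development of myeloid and lymphoid cells. In osteoclast precursors Irf8 is known as an inhibitor of osteoclast formation, and type I interferon restrains both osteoclasts and osteoblasts. The protein encoded by Def6 and its relative Swap70 are known to bind Irf4 protein.

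Levels are given as normalized CPM, the CPM of a gene relative to the reads counted on genes, after TMM scaling. The libraries held between 2414856 and 3482837 reads on genes, and 1 read was worth between 0.287 and 0.427 normalized CPM. Def6 itself had 147 and 112 reads in the WT libraries at day 0, 186 and 137 at day 12, 0 and 1 in the Def6-/- libraries at day 0 and 2 in each at day 12, as the labels state. The osteoblast markers, 11 genes summed, were at 36486 to 51983 normalized CPM at day 0 and 95349 to 133457 at day 12. Most of this sum came from Col1a1, Col1a2, Sparc and Spp1. Of the other markers, Runx2 had 129 to 309 reads at day 0, Sp7 108 to 225 and Alpl 35 to 59. Ibsp had 2 to 26 reads at day 0, Dmp1 0 to 8, Phex 1 to 4 and Bglap 0 in each library. The WT libraries at day 0 stood further apart than those of any other group (chi-square per gene 31.9, against 4.28 to 11.8 in the other groups), and values without each of them are given for the changes in WT cells and for day 0 differences that they move. Fold changes are on the log2(normalized CPM + 1) scale, which understates changes of genes with few reads, with a standard error from limma over all 8 libraries. A gene was called at a Benjamini-Hochberg adjusted p under 0.05 over all 12348 genes tested, or, where stated, at an unadjusted threshold (a limma p under 0.05 and a change over 1.2-fold; the study took its p from edgeR).

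Promoter sequence was taken from RefSeq (GRCm38.p6, the build of mm10), from 250 bases before to 50 bases after each start, and all 8 genes had at least 1 of the 11 promoters found. These windows are shown because the family is itself a target of interferon signalling. GAAANNGAAA, the core that the family binds, was searched on both strands and stood in 3.44% of 32851 promoters and in 1 of the 11 member promoters, that of Irf2. TTCNNNGAA, the core of the element that Stat dimers bind, stood in 8.3% of all promoters and in 3 of the 11, those of Irf1, Irf2 and Irf8. The motifs are in capitals, in windows of the plus strand at chr11:53769908-53769948 for Irf1, chr8:46739495-46739545 for Irf2 and chr8:120736171-120736229 for Irf8.
Irf1: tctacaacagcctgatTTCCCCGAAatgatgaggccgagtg
Irf2: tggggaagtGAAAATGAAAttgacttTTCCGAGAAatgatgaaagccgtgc
Irf8: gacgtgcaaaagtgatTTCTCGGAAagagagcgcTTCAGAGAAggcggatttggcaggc
The Irf1 match began 90 bases before the start. Irf2 held the GAAA core at -241 and the Stat core at -224, and Irf8 held the Stat core at -171 and again at -153. No window of Irf3, Irf4, Irf5, Irf7 or Irf9 held these letters. A match describes the letters only, and occupancy was not measured.

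The family as a whole was higher after 12 days. The summed level per kb of exons was 41.0 and 45.9 normalized CPM per kb in the WT libraries at day 0 and 38.9 and 44.4 in the Def6-/- libraries. At day 12 it was 86.5 and 94.1 in WT and 67.1 and 65.9 in Def6-/- libraries. All 4 libraries at day 12 lay above all 4 at day 0, and at day 12 both WT libraries lay above both Def6-/- libraries, whereas the genotypes overlapped at day 0.

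**Figure D1:**
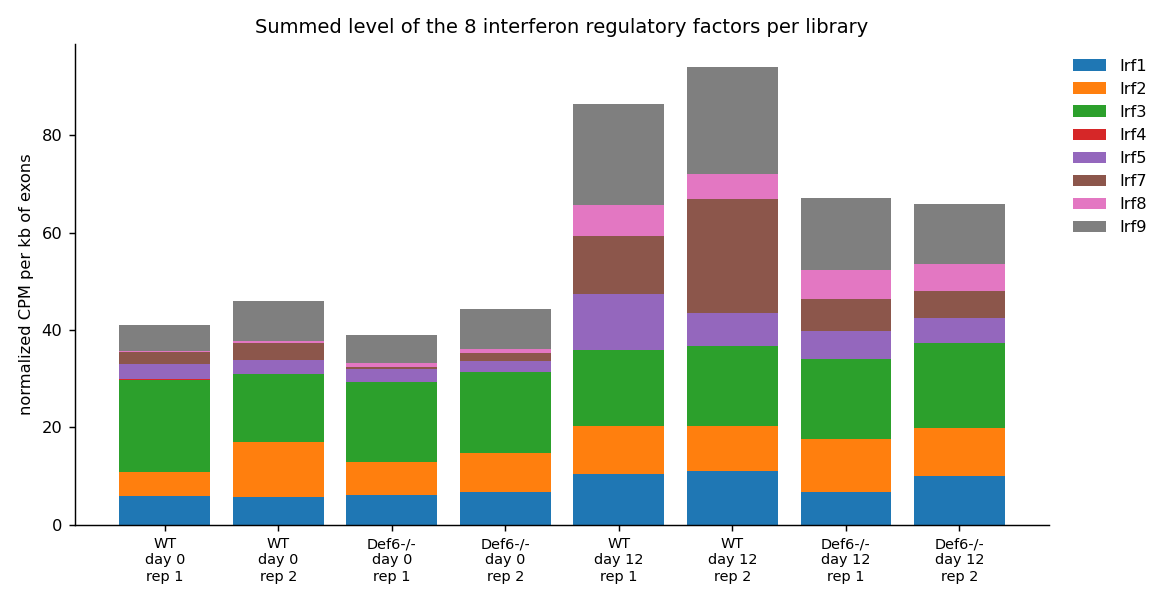
Summed level of the 8 interferon regulatory factors in each library, in normalized CPM per kb of exons, stacked by gene. The bars of the 4 libraries at day 0 reach 38.9 to 45.9, and those at day 12 reach 65.9 to 94.1, with Irf7 and Irf9 taking the widest added bands in WT cells.

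In WT cells, 5 of the 7 members tested rose between day 0 and day 12 at an adjusted limma p under 0.05 (Irf1, Irf5, Irf7, Irf8 and Irf9), where 12.7% of all genes tested rose and 5.64% fell. The median change of the 7 members was 1.51 on the log2 scale, beside -0.00 for all genes. In Def6-/- cells 4 of the 7 rose (Irf5, Irf7, Irf8 and Irf9), where 12% of all genes rose and 4.79% fell, with a median of 0.96 beside 0.01. No member fell in either genotype. Both libraries of day 12 lay above both of day 0 for 5 members in WT, which held for 29.3% of all genes, and for 5 in Def6-/- cells, which held for 35.2%. The filter's minimum was a group mean of 1 deposited CPM. Each of the 7 reached it in 1 genotype or both at day 0 as well as at day 12. At day 0 Irf8 did so only in Def6-/- cells, and narrowly (1.006, beside 0.419 in WT). Irf7 did so only in WT cells (2.35, beside 0.928 in Def6-/-). Within WT cells alone Irf8 thus passed through its day 12 level, as did Irf7 within Def6-/- cells alone. The largest changes were those of Irf8 and Irf7, and Irf3 had the smallest.

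**Figure D2:**
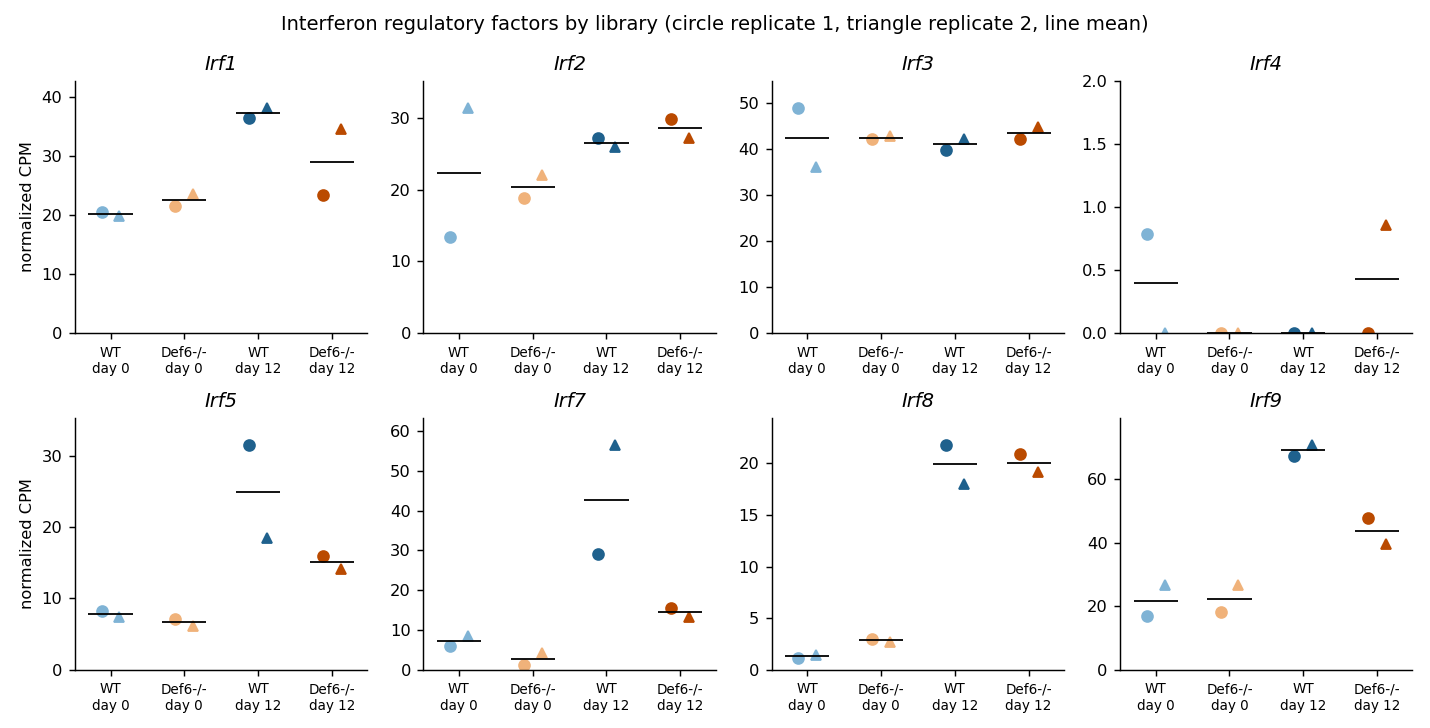
Normalized CPM of each member in every library, by genotype and day, with circles for replicate 1, triangles for replicate 2 and a line at the mean of the 2 libraries; each panel has its own axis from 0. Irf5, Irf7, Irf8 and Irf9 are higher at day 12 in both genotypes, Irf3 lies between 36.0 and 48.9 normalized CPM, and Irf4 is at or near 0 in all 8 libraries.

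**Figure D3:**
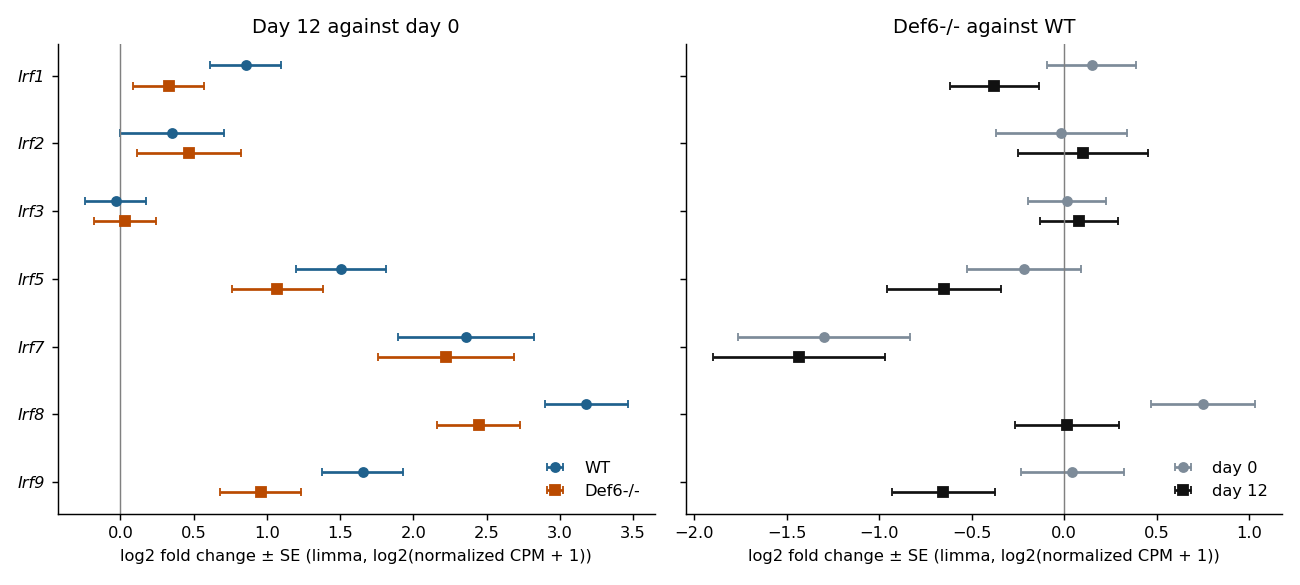
Log2 fold change with its standard error from limma for the 7 members tested, on the left day 12 against day 0 in WT and in Def6-/- cells, on the right Def6-/- against WT cells at day 0 and at day 12. Irf8 changed most with time (3.18 in WT) and Irf7 differed most between genotypes (-1.30 at day 0 and -1.43 at day 12).

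Irf3 (chr7:44997648-45002848, plus strand, GRCm38) encodes the factor that is present before infection and starts the interferon response. It was at 48.9 and 36.0 normalized CPM in the WT libraries at day 0, at 42.1 and 42.9 in the Def6-/- libraries at day 0, at 39.9 and 42.3 in WT at day 12 and at 42.3 and 44.8 in Def6-/- at day 12. The groups overlapped in each of these comparisons. Its change with time was -0.03 in WT (SE 0.21, adjusted p = 0.937) and 0.03 in Def6-/- cells (SE 0.21, adjusted p = 0.941). The ratio of Irf3 reads between Def6-/- and WT cells at day 12 was 1.07 after scaling, with a 95% interval of 0.880 to 1.29 that covers counting error only. The limma difference, whose error takes in the spread between libraries, was 0.08 on the log2 scale (SE 0.21). No difference between genotypes was called, and a small one was not detectable at this depth. The interval leaves out the spread between libraries and sets no bound on a difference. The signs of these small changes depend on single libraries: without WT day 0 replicate 1 or 2 the change in WT was 0.19 or -0.25, and the difference between genotypes at day 0 was 0.24 or -0.20. Irf3 overlaps Bcl2l12 on the opposite strand, which held 243 reads in all and had no called change. The sources used here do not state whether counting used strand.

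Irf7 (chr7:141262706-141266481, minus strand) encodes the interferon-inducible partner of Irf3, which amplifies the response. In WT cells it was at 5.92 and 8.48 normalized CPM at day 0 (15 and 24 reads) and at 29.0 and 56.5 at day 12 (101 and 135 reads). In Def6-/- cells it was at 1.13 and 4.09 at day 0 (3 and 12 reads) and at 15.6 and 13.2 at day 12 (38 and 31 reads). At each day the WT libraries were higher without overlap, and within each genotype both libraries at day 12 were above both at day 0.

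Irf7 rose by 2.36 on the log2 scale in WT (SE 0.47, adjusted p = 0.00884) and by 2.22 in Def6-/- cells (SE 0.47, adjusted p = 0.0119). The call in WT was lost without WT day 12 replicate 2, the highest library (1.89, adjusted p = 0.0930). Without WT day 0 replicate 1 or 2 the WT rise was 2.14 or 2.59 and remained called. In Def6-/- cells the call was lost without Def6-/- day 0 replicate 1 (1.60, adjusted p = 0.0901), without Def6-/- day 12 replicate 1 (adjusted p = 0.0935) and without Def6-/- day 12 replicate 2 (adjusted p = 0.0679). The difference between the rises, -0.13 (SE 0.66), was smaller than its error, and its sign depends on the pseudocount (0.18 at 0.1). The level in Def6-/- cells at day 12 thus lay above the day 0 level of WT cells and below their day 12 level.

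Between genotypes, Irf7 differed by -1.30 at day 0 and by -1.43 at day 12 (SE 0.47 each). Both passed the unadjusted threshold, and neither passed the adjustment (adjusted p = 0.908 at day 0 and adjusted p = 1 at day 12). On reads, the Def6-/- to WT ratio was 0.369 at day 0, with a 95% interval of 0.189 to 0.684, and 0.359 at day 12, with an interval of 0.271 to 0.472, for counting error only. The day 12 difference lost its unadjusted call without WT day 12 replicate 2 (-0.96) and without Def6-/- day 12 replicate 2 (-1.33). The day 0 difference lost it without WT day 0 replicate 2 (-1.07) and without Def6-/- day 0 replicate 1 (-0.67), and also when only the 4 libraries of day 0 were fitted. Averaged over both days, a comparison added after the Irf7 values at both days were known, the difference was -1.37 (SE 0.33, adjusted p = 0.984). It passed the unadjusted threshold, and did so in all 16 alternatives run, with values between -1.68 and -1.04. Irf7 was the only one of the 7 to pass in the averaged comparison, where 1.13% of all genes were lower. Phrf1, which overlaps Irf7 on the opposite strand with 1485 reads in all, differed by 0.39 at day 0 and 0.03 at day 12 and was not called.

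Irf9 (chr14:55603571-55610030, plus strand) encodes the DNA-binding subunit of the complex with Stat2. It was at 17.0 and 26.5 normalized CPM in WT and 18.1 and 26.6 in Def6-/- libraries at day 0, with the genotypes overlapping. At day 12 it was at 67.2 and 70.8 in WT (234 and 169 reads) and at 47.6 and 39.7 in Def6-/- libraries (116 and 93 reads), with no overlap. Irf9 rose by 1.65 in WT (SE 0.28, adjusted p = 0.00421) and by 0.96 in Def6-/- cells (SE 0.28, adjusted p = 0.0474).

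The Irf9 rise in WT was 1.35 without WT day 0 replicate 1 and 1.96 without replicate 2, and stayed called. Without WT day 12 replicate 1 it had an adjusted limma p of 0.0516. The rise in Def6-/- cells was lost without any one of the 6 libraries other than those of WT day 0, with adjusted limma p-values of 0.306 and 0.0653 for Def6-/- day 0 replicates 1 and 2, 0.122 and 0.0977 for WT day 12, and 0.255 and 0.143 for Def6-/- day 12. It passed in 6 of the 17 alternatives. The difference between genotypes at day 12 was -0.65 (SE 0.28, adjusted p = 1), past the unadjusted threshold, and the ratio of reads was 0.637 (95% interval 0.537 to 0.755, counting error only). It lost its unadjusted call without any one of the 4 libraries at day 12 (-0.78 to -0.53), with CPM as deposited and with DESeq2. At day 0 the difference was 0.04, and it was -0.26 without WT day 0 replicate 1 and 0.35 without replicate 2. The difference between the rises was -0.70 (SE 0.39), short of the unadjusted threshold, which it passed without WT day 0 replicate 2 (-1.003, adjusted p = 0.0676). Rnf31, which overlaps Irf9 on the same strand, changed by -0.03 in WT and 0.19 in Def6-/- cells and was not called.

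Irf1 (chr11:53770014-53778374, plus strand) encodes an activator that interferon γ induces. It was at 20.5 and 19.8 normalized CPM in WT and 21.4 and 23.5 in Def6-/- libraries at day 0. By day 12 it was at 36.5 and 38.1 in WT and at 23.4 and 34.6 in Def6-/- libraries. Both WT libraries at day 12 were above all 6 others, and Def6-/- day 12 replicate 1 lay within the range of its day 0 group. The rise was 0.86 in WT (SE 0.24, adjusted p = 0.0403) and 0.33 in Def6-/- cells (SE 0.24, adjusted p = 0.415), and the difference between them was -0.53 (SE 0.34), short of both thresholds, so that the genotypes were not shown to differ in it. The WT call was lost without Def6-/- day 0 replicate 1 or 2 (adjusted p = 0.0714 and 0.0718), WT day 12 replicate 1 or 2 (0.186 and 0.207) or Def6-/- day 12 replicate 2 (0.0508). It passed in 7 of the 17 alternatives run, among them those without WT day 0 replicate 1 (0.88) or 2 (0.83). At day 12 Irf1 differed between genotypes by -0.38 (SE 0.24, adjusted p = 1).

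Irf2 (chr8:46739732-46847458, plus strand) encodes the antagonist of Irf1. It was at 13.4 and 31.4 normalized CPM in the WT libraries at day 0, the widest gap of any member in that group, and at 18.8 and 22.1 in Def6-/- libraries. The day 12 levels were 27.3 and 26.0 in WT and 30.0 and 27.3 in Def6-/- libraries. Its changes with time were 0.35 in WT (SE 0.35, adjusted p = 0.532) and 0.47 in Def6-/- cells (adjusted p = 0.428), and no difference between genotypes was called. These values rest on the WT libraries at day 0. Without replicate 1 the WT change was -0.23 (adjusted p = 0.510), the day 0 difference between genotypes -0.60 and the interaction 0.70, both past the unadjusted threshold. Without replicate 2 they were 0.94 (adjusted p = 0.00809), 0.57, past the unadjusted threshold, and -0.47, which did not pass it.

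Irf8 (chr8:120736358-120756694, plus strand) encodes a factor of the macrophage lineage that binds DNA together with the myeloid factor encoded by Spi1. It had 3 and 4 reads in the WT libraries at day 0 (1.18 and 1.41 normalized CPM) and 8 in each Def6-/- library (3.01 and 2.72). At day 12 it was at 21.8 and 18.0 normalized CPM in WT and 20.9 and 19.2 in Def6-/- libraries, and the genotypes overlapped. It rose by 3.18 in WT (SE 0.28, adjusted p = 0.00019) and by 2.45 in Def6-/- cells (SE 0.28, adjusted p = 0.000718), and kept both calls in each of the 17 alternatives run, leaving out any library among them (3.11 and 3.25 in WT without WT day 0 replicates 1 and 2). The ratio of reads was 15.5 in WT (95% interval 7.31 to 39.5) and 7.03 in Def6-/- cells (4.11 to 12.8). At day 12 the genotypes differed by 0.02 (SE 0.28), and the ratio of reads was 0.992 (0.750 to 1.31).

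At day 0 Irf8 was higher in Def6-/- cells by 0.75 (SE 0.28, adjusted p = 0.908), past the unadjusted threshold. This rests on 16 against 7 reads, whose ratio of 2.19 had a 95% interval of 0.853 to 6.30, so that at this depth a difference was not detectable from the reads. The unadjusted call was lost without WT day 0 replicate 1 (0.68), Def6-/- day 0 replicate 1 (0.70) or Def6-/- day 0 replicate 2 (0.80), with CPM as deposited (0.50), with only the groups compared in the fit with or without the replicate number as a block, and with edgeR (1.11) and DESeq2 (1.14) on reads. It passed in 9 of the 17 alternatives.

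Irf5 (chr6:29526625-29541871, plus strand) encodes a factor that acts below Toll-like receptors and Myd88 and is abundant in macrophages. Its level was 8.29 and 7.42 normalized CPM in WT and 7.15 and 6.13 in Def6-/- libraries at day 0. After 12 days it was 31.6 and 18.4 in WT (110 and 44 reads) and 16.01 and 14.1 in Def6-/- libraries (39 and 33 reads). The highest library was WT day 12 replicate 1, and no groups overlapped. Irf5 rose by 1.51 in WT (SE 0.31, adjusted p = 0.0105) and by 1.07 in Def6-/- cells (SE 0.31, adjusted p = 0.0456). The WT call was lost without WT day 12 replicate 1 (1.10, adjusted p = 0.114), and held without WT day 0 replicate 1 (1.58) or 2 (1.44).

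The Irf5 call in Def6-/- cells was lost without Def6-/- day 0 replicate 1 or 2 (adjusted p = 0.148 and 0.198), Def6-/- day 12 replicate 1 or 2 (0.224 and 0.158) or WT day 12 replicate 1 (0.0592), and passed in 8 of the 17 alternatives. The difference between genotypes at day 12 was -0.65 (SE 0.31, adjusted p = 1), short of the unadjusted threshold. It was -0.28 without WT day 12 replicate 1 and -1.02 without WT day 12 replicate 2, where it passed that threshold, as it did in 5 other alternatives of 17: without WT day 0 replicate 1 or 2, with only the groups compared in the fit, with the replicate number as a block in that fit, and with edgeR. At day 0 it was -0.21 (SE 0.31). Tnpo3, which overlaps Irf5 on the opposite strand with 2110 reads in all, moved the other way with time, by -0.38 in WT (not called) and -0.64 in Def6-/- cells (adjusted p = 0.0481).

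Irf4 (chr13:30749226-30766976, plus strand), a factor of lymphocytes, had 2 reads in WT day 0 replicate 1, 2 in Def6-/- day 12 replicate 2 and 0 in the other 6 libraries. A count of 0 allows up to 3 reads, which is 0.861 to 1.28 normalized CPM in these libraries, so no group was above this limit and no fold is given. Of 6 T cell markers, 4 (Cd3d, Cd3e, Cd3g and Cd8a) had no read in any library, and Lck had at most 4. Cd4, the other marker, had no read at day 0 and 35, 6, 5 and 11 reads in WT replicates 1 and 2 and Def6-/- replicates 1 and 2 at day 12, and was called higher in WT (adjusted p = 0.0138) and in Def6-/- cells (adjusted p = 0.0395). Cd4 thus passed the filter only through its day 12 levels.

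Between genotypes at day 12, 2 of the 7 members were lower in Def6-/- cells at the unadjusted threshold (Irf7 and Irf9) and none was higher, where 0.591% of all genes were lower and 0.81% higher. At the adjusted threshold no member was called, as Def6 was the only gene called, 0.0081% of those tested. For 4 members (Irf1, Irf5, Irf7 and Irf9) the Def6-/- libraries were lower without overlap, as for 15.9% of all genes, and for Irf2 they were higher without overlap, as for 16.8%. The median of the 7 differences was -0.38, beside -0.00 for all genes. At day 0, 1 member was lower (Irf7; 1.31% of all genes) and 1 higher (Irf8; 0.988%), and the median was 0.02 beside -0.02. Without overlap at day 0, Irf5 and Irf7 were lower (11.7% of all genes) and Irf1 and Irf8 higher (10.9%). In the interaction of genotype and day no member was called by limma at the adjusted or the unadjusted threshold, and 1.13% of all genes passed the latter, and edgeR and DESeq2 also called none. The median interaction was -0.44, beside 0.02 for all genes, and 5 of the 7 were negative. The comparisons at each day share no libraries, while the day comparisons share theirs with the genotype comparisons.

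Among members, levels can be ranked only per length. At day 0 Irf3 was the highest member per kb in both genotypes, at 16.5 ± 3.55 normalized CPM per kb (SD, n = 2) in WT and 16.6 ± 0.214 in Def6-/- cells. Irf2, Irf9 and Irf1 followed, with overlapping libraries between neighbours (8.07, 6.75 and 5.80 in WT; 7.36, 6.92 and 6.47 in Def6-/- cells). In WT cells Irf7 (2.98) and Irf5 (2.86) overlapped next, and Irf8 (0.378) and Irf4 (0.0805) were lowest. In Def6-/- cells Irf5 (2.42) stood above Irf7 (1.08), which overlapped Irf8 (0.835).

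At day 12 in WT cells Irf9 (21.4 ± 0.792 normalized CPM per kb, SD, n = 2), Irf7 (17.7 ± 8.05) and Irf3 (16.002 ± 0.661) led, and Irf7 overlapped both neighbours through the gap between its libraries. Irf1 (10.7), Irf2 (9.57), Irf5 (9.11) and Irf8 (5.80) followed. In Def6-/- cells at day 12 Irf3 (17.0 ± 0.698) stayed first, above Irf9 (13.6 ± 1.74), and Irf7 (5.96), Irf8 (5.84) and Irf5 (5.48) overlapped one another in turn near the end of the order. Irf3 took 38.5% of the summed level per kb in WT and 39.9% in Def6-/- cells at day 0, and 17.7% and 25.5% at day 12. Irf7 took 6.80% and 2.50% at day 0, and 19.4% and 8.96% at day 12.

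Irf5, Irf8 and the Spi1 partner are genes of myeloid cells, and markers of those cells moved with them. Summed over 23 macrophage and myeloid markers, the level was 252 to 506 normalized CPM at day 0 and 3735 to 7324 at day 12. Of the 23, 21 were called higher at day 12 in WT and 20 in Def6-/- cells, where 12.7% and 12% of all genes tested were. Of 6 dendritic cell markers Siglech, Flt3 and Cd209a had no read, and the 6 summed to 1.06 to 3.95 normalized CPM at day 0 and 2.46 to 6.31 at day 12. Zbtb46, the only one tested, had 3 to 20 reads in every library and was not called. At day 12 the sum was 7324 and 3735 in the WT libraries and 4569 and 4124 in the Def6-/- libraries. The sum of WT replicate 2 was thus below both Def6-/- sums. None of the 23 differed between genotypes at an unadjusted limma p under 0.05, where 0.591% of all genes were lower and 0.81% higher at the unadjusted threshold. A negative sign was found for 22 of the 23, and their median was -0.31, beside -0.00 for all genes. The Def6-/- libraries were lower without overlap for 2 of the 23, as for 15.9% of all genes. Markers of 1 cell type move together, so their signs are not separate observations.

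Irf8 held 2.98 and 4.82 normalized CPM per 1000 of the marker sum in WT and 4.58 and 4.66 in Def6-/- libraries at day 12, beside 2.34 and 4.40 in WT and 11.96 and 7.06 in Def6-/- libraries at day 0. In WT cells the ratios of both days overlapped, and in Def6-/- cells those of day 0 were higher. Irf5 per 1000 of the sum was 15.9 to 28.4 at day 0 and 3.42 to 4.93 at day 12. Lyz2 alone was at 87.7 to 246 normalized CPM at day 0 and 1926 to 4049 at day 12. Its share of the sum was larger at day 12, so these ratios depend much on that gene. Library by library, the highest marker sum and the highest Irf5 were both in WT day 12 replicate 1, whereas the highest Irf7 was in WT day 12 replicate 2, where the sum was the lowest of the 4. Some markers of other cells moved as well. The sum of 5 cartilage markers, most of it Col2a1, was 1973 to 3820 normalized CPM at day 0 and 821 to 1218 at day 12. Of the 4 tested, 1 was called lower with time in WT (5.64% of all genes) and 2 in Def6-/- cells (4.79%). None was called higher in WT (12.7%) and 1 in Def6-/- cells (12%). The sum of 6 adipocyte markers was 36.9 to 47.0 normalized CPM at day 0. At day 12 it was 311 and 333 in WT and 426 and 436 in Def6-/- libraries. Of the 6, 4 were higher in Def6-/- than in WT cells at day 12 at the unadjusted threshold (0.81% of all genes). Most of the sum was Lpl, at 30.5 to 37.5 at day 0 and 278 to 368 at day 12. Adipoq and Cfd had no read at day 0, and Plin1 at most 1. At day 12 these 3 had 1 to 12 reads in WT and 8 to 36 in Def6-/- libraries. Adipoq and Cfd passed the filter only through Def6-/- day 12, the group where they were highest. Of 5 endothelial markers Tie1 had no read, and Pecam1 had at most 3 reads in a library. The 5 summed to 0.789 to 5.45 normalized CPM at day 0 and 10.9 to 13.1 at day 12. Tek, the only one tested, had 14 to 22 reads at day 12. It was called higher in WT (2.004, adjusted p = 0.0303) and not in Def6-/- cells (adjusted p = 0.0704). Tek passed the filter only through its day 12 levels. The part that any of these cells took in the level of each member was not tested.

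**Figure D4:**
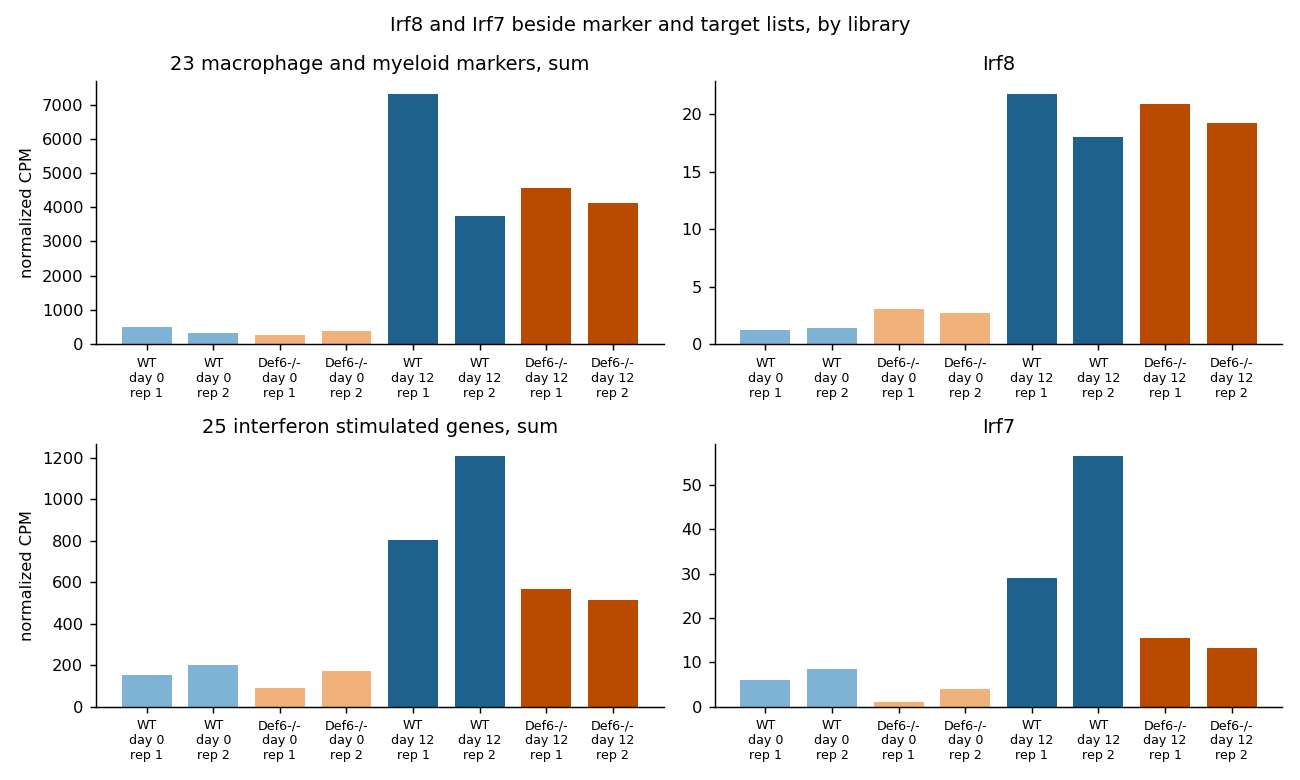
Normalized CPM by library of the 23 macrophage and myeloid markers summed, of Irf8, of 25 interferon stimulated genes summed and of Irf7, each panel from 0. At day 12 the marker sum peaks in WT replicate 1 (7324), whereas the sum of interferon stimulated genes and Irf7 peak in WT replicate 2 (1206 and 56.5).

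Upstream of Irf3 and Irf7, the ligands and sensors were examined as lists. Of 21 genes of type I, II and III interferons, 19 had no read in any library and the list held 4 reads in all, so that no ligand could be tested. Of these genes 20 had a RefSeq promoter, and 11 (55%) held GAAANNGAAA, beside 3.99% of 27025 genes. Many of the list are related Ifna genes, and the type I genes are known targets of Irf3 and Irf7. The share is thus no test of the motif. Of 24 genes of nucleic acid sensing and kinase signalling, 23 were tested. In WT cells 9 of the 23 rose with time (12.7% of all genes) and none fell, and in Def6-/- cells 6 rose (12% of all genes) and none fell. Tlr7, a sensor of single-stranded RNA in myeloid cells, rose by 2.91 in both genotypes (adjusted p = 0.000834 in WT and 0.000823 in Def6-/- cells). Zbp1, a sensor of Z-form nucleic acids that is itself interferon induced, rose by 2.42 in WT (adjusted p = 0.00181). At day 0 Zbp1 was at 0.789 and 0.707 normalized CPM in WT and 0.752 and 0.681 in Def6-/- libraries, each below 3 reads. It passed the filter only through WT day 12.

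Between genotypes at day 12, 2 of the 23 sensing genes were lower at the unadjusted threshold, as were 0.591% of all genes, and none was higher. Zbp1 was at 7.18 and 9.63 normalized CPM in WT and 2.46 and 2.56 in Def6-/- libraries (-1.41, SE 0.34, adjusted p = 1), and its interaction of -1.38 also passed the unadjusted threshold. Since Zbp1 passed the filter only through WT day 12, the group where it was high, these values are a description only. Dhx58, a regulator of the RNA sensors, differed by -0.89 (SE 0.38). The list's median was -0.04. No sensing gene passed the unadjusted threshold between genotypes at day 0, where 1.31% of all genes were lower and 0.988% higher.

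Of 19 receptor and JAK-STAT genes around Irf9, 18 were tested. With time 6 rose in each genotype, beside 12.7% of all genes in WT and 12% in Def6-/- cells, and none fell. Among them were Stat2, the partner of Irf9 (1.99 in WT, adjusted p = 0.00366), and Ptpn6, a phosphatase of blood cells (2.38 in WT and 2.58 in Def6-/- cells, adjusted p = 0.00285 and 0.00187). Isg15, a ubiquitin-like protein that is among the strongest interferon targets, was the only gene of the list lower at the unadjusted threshold in Def6-/- cells, at day 12 (-1.47, SE 0.59) and at day 0 (-1.65, SE 0.59). Of all genes 0.591% were lower at day 12 and 1.31% at day 0. At day 0 Isg15 was at 17.4 and 6.01 normalized CPM in WT and 1.13 and 5.11 in Def6-/- libraries. At day 12 it was at 78.1 and 152 normalized CPM in WT and 42.3 and 35.4 in Def6-/- libraries, and as for Irf7 the highest library was WT day 12 replicate 2.

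Downstream, 23 of 25 interferon stimulated genes were tested. In WT cells 21 of the 23 rose with time (12.7% of all genes), with a median of 2.32, and in Def6-/- cells 12 rose (12% of all genes), with a median of 1.69. Ifit3, an antiviral RNA-binding protein, rose by 4.31 in WT and 3.43 in Def6-/- cells (adjusted p = 0.000199 and 0.000639). At day 0 Ifit3 was at 1.18 and 2.83 normalized CPM in WT and 1.13 and 1.36 in Def6-/- libraries. It passed the filter only through its day 12 levels. At day 12 all 23 had a negative difference between genotypes, 9 at the unadjusted threshold (0.591% of all genes) and none at the adjusted one, with a median of -0.83. The Def6-/- libraries were lower without overlap for 19 of the 23, as for 15.9% of all genes. Rtp4, an interferon-induced gene, was at 38.5 and 71.2 normalized CPM in WT and 25.5 and 15.8 in Def6-/- libraries (-1.34, SE 0.36). At day 0 the median was -0.37, with 1 gene lower at the unadjusted threshold (1.31% of all genes), Bst2 (-1.07, SE 0.40). The list had been chosen with results of these data known and is no independent support. It was drawn up as genes whose promoters hold the interferon-stimulated response element, an element of GAAA repeats. Of the 19 genes of the list with a promoter, 9 (47.4%) held GAAANNGAAA, beside 3.99% of 27025 genes. This share follows from how the list was drawn up and is no test of the motif.

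Of 22 genes that are known to depend on Irf1, 18 were tested. With time 13 rose in WT (12.7% of all genes) and 8 in Def6-/- cells (12%), with medians of 1.65 and 1.18. Gbp3, a guanylate binding protein, rose by 3.78 in WT and 2.48 in Def6-/- cells (adjusted p = 0.00027 and 0.00202). At day 0 Gbp3 was at 1.97 and 3.53 normalized CPM in WT and 2.63 and 2.04 in Def6-/- libraries. It passed the filter only through its day 12 levels. At day 12, 3 of the 18 were lower in Def6-/- cells at the unadjusted threshold (0.591% of all genes) and none was higher, with a median of -0.37. Gbp3 was at 38.5 and 63.2 normalized CPM in WT and 20.5 and 14.9 in Def6-/- libraries (-1.44, SE 0.36), and Nlrc5, the activator of MHC class I genes, differed by -0.96 (SE 0.40).

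Of 21 partners and co-regulators of the family, 16 were tested. With time 4 of the 16 rose in each genotype, beside 12.7% of all genes in WT and 12% in Def6-/- cells, and none fell. Spi1 was among them (2.94 in WT and 2.67 in Def6-/- cells, adjusted p = 0.000621 and 0.000983). At day 12 Spi1 was at 58.8 and 34.3 normalized CPM in WT and 32.0 and 30.7 in Def6-/- libraries (-0.51, SE 0.33, adjusted p = 1). Def6 is on this list and was the only gene of it called between genotypes, and Swap70, its relative, differed by 0.08 at day 12 (SE 0.22, adjusted p = 1).

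The genes whose log2 levels followed each member most closely over the 8 libraries are given as a description. All genes of a library share its depth and scaling, and the 8 libraries fall into 4 of each day, so that genes that changed with time correlate through the days. For Irf7 these were Iffo1 (Pearson r = 0.983), Bst2 (0.971) and Ifi44 (0.970), of which Bst2 and Ifi44 are interferon induced. For Irf9 they were Acad11 (0.998), Stat2 (0.994) and Samd9l (0.987), and for Irf1 Rinl (0.995), Slc26a10 (0.981) and Gbp2 (0.976). For Irf8 they were Tmem158 (0.997) and Tmem86a (0.997), and for Irf5 BC021767 (0.989), Speg (0.983) and Glul (0.982). Irf2 was nearest to Uvssa (0.983), Gna13 (0.980) and Itga1 (0.980), and Irf3 to Pigyl (0.967), Ublcp1 (0.960) and Zfand3 (0.948), which like Irf2 and Irf3 were set apart in WT day 0 replicate 1. Within the family the highest correlation was between Irf7 and Irf9 (0.914) and the lowest between Irf2 and Irf3 (-0.736).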

How the data were processed

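RNA of 8 libraries was analysed. According to the methods and GEO's tool list, the authors used fastp, HISAT2 (mm10) and HTSeq, and the CPM they deposited were computed in edgeR; versions, annotation and strand setting are not given in the sources used here. The deposited CPM are relative to all reads, of which 28.8% to 35.3% lay on genes. Whole reads came back for 99.957% of 114821 positive values (within 0.02 reads); the 49 others lie in 9 myeloid and osteoclast genes and in no member, and Ptprc was left out of its list for this.

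Reads were rescaled to reads on genes with TMM factors and tested with limma 3.58.1 (trend, 4 group means, two-sided) on log2(normalized CPM + 1), for genes whose deposited CPM averaged 1 or more in any group, since the files hold CPM and not counts. A list gene with few reads could thus enter the test only through the group where it was high. edgeR 4.0.16 and DESeq2 1.42.0 ran on recovered reads as alternatives (R 4.3.3). Lengths are exon unions of protein-coding transcripts (GENCODE, GRCm38). Intervals of read ratios are exact and conditional on the total, and floors are 3 reads. The members and lists were chosen with earlier results of these data known. Named were all members, Def6, up to 2 list genes of smallest p in each direction and the 3 genes of highest correlation with each member, of which 1 is not reported here; marker lists were summed.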

Additional observations from a re-analysis of the deposited data

How the results depend on the processing

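Of the members' values, Irf8 kept its adjusted call in both day comparisons in all 17 alternatives. Irf7 averaged over both days kept its unadjusted call in all 16, and did not pass the adjustment in the main fit. That comparison was added after the Irf7 values at both days were known, so this is no independent support. The unadjusted calls of Irf7 between genotypes held in 15 of 17 alternatives at day 12 and 14 of 17 at day 0. Each of the other calls was lost without 1 library or more, as given beside them. With 2 libraries per group and 294 to 882 member reads in a library, changes of members with few reads have wide intervals, and leaving out a library leaves a group with 1, which is assumed to vary like the others. The causes of the changes below were not tested.

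Counts of all genes and of members called moved as follows. Between genotypes at day 12 the counts were 173 genes and 2 members. They were 560 genes when only the groups compared were fitted, 449 without a filter, 647 with the replicate block added to the fit of the groups compared, and 85 with DESeq2, and 1 member with CPM as deposited and with DESeq2. Leaving out 1 library gave 121 (without WT day 12 replicate 2) to 458 genes (without WT day 0 replicate 1) and 0 to 3 members. At day 0 the counts were 284 and 2. They were 59 genes and 0 members with only the groups compared, 444 genes without a filter, and 1 member with CPM as deposited, with the replicate block (again in the fit of the groups compared), with edgeR and with DESeq2, and without 1 library 157 (Def6-/- day 0 replicate 1) to 4584 genes (WT day 0 replicate 2) and 0 to 2 members. Between days in WT they were 2261 and 5, with 1086 genes and 3 members with only the groups compared, and 835 (WT day 12 replicate 1) to 5708 genes (WT day 0 replicate 2) and 2 to 6 members without 1 library. Between days in Def6-/- cells they were 2076 and 4, with 3913 genes with only the groups compared, 4616 with the replicate block added to that fit, 2 members with CPM as deposited, without a filter and with DESeq2, and 927 (Def6-/- day 0 replicate 1) to 4313 genes (WT day 0 replicate 2) and 1 to 4 members without 1 library. In the interaction they were 139 and 0, with 336 genes without a filter, 45 with DESeq2, and 99 (WT day 12 replicate 2) to 3334 genes (WT day 0 replicate 2) and 0 to 1 members without 1 library. Averaged over both days they were 277 and 1, with 466 genes without a filter, 138 with DESeq2, 2 members with a pseudocount of 0.1, and 161 (WT day 12 replicate 2) to 3577 genes (WT day 0 replicate 2) and 1 to 2 members without 1 library. At day 12, 57.8% of the genes called had the higher level in Def6-/- cells, and 70% did with CPM as deposited and 71.8% with DESeq2. For day 0 this share was 43%, beside 72.3% with CPM as deposited, 32.3% with edgeR and 16.5% with DESeq2.

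Only values that had not been called changed sign. For Irf2 between genotypes at day 0 (-0.01) these were 0.00057 with only the groups compared and with the replicate block, 0.095 with CPM as deposited and 0.0083 without a filter. For Irf3 between days in Def6-/- cells (0.03) they were -0.048 with CPM as deposited and -0.043 without a filter, and in the interaction (0.07) -0.0071 with CPM as deposited. The interaction of Irf7 (-0.13) was 0.18 with a pseudocount of 0.1 and 0.011 with 0.5, and the averaged difference of Irf2 was -0.017 with edgeR and -0.018 with DESeq2. Without 1 library the ranges that include a change of sign were, at day 12, -0.11 to 0.15 for Irf8, and at day 0 -0.60 to 0.57 for Irf2, -0.20 to 0.24 for Irf3 and -0.26 to 0.35 for Irf9. Between days they were -0.23 to 0.94 for Irf2 and -0.25 to 0.19 for Irf3 in WT, and -0.026 to 0.072 for Irf3 in Def6-/- cells. For the interaction they were -0.47 to 0.70 for Irf2, -0.15 to 0.28 for Irf3 and -0.76 to 0.49 for Irf7. For the averaged difference they were -0.25 to 0.021 for Irf1, -0.25 to 0.34 for Irf2 and -0.058 to 0.16 for Irf3.

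Same-numbered libraries deviated together with correlations of 0.327 between genotypes at day 0, 0.037 at day 12, 0.088 in WT and 0.152 in Def6-/- cells, so the numbers were not shown to pair the libraries. In the fit of only the 4 libraries of day 12, the difference of Irf7 had an adjusted p of 0.353 without the replicate block and 0.0468 with it, and that of Irf9 0.458 and 0.129, where the range over the alternatives for Irf7 was 0.0468 to 1. With the longest transcript in place of the union of exons, the order per kb changed among neighbours: Irf1 stood above Irf2 and Irf9 in both genotypes at day 0 and above Irf2 in Def6-/- cells at day 12, Irf5 above Irf7 in WT cells at day 0 and in Def6-/- cells at day 12, Irf8 above Irf7 in the latter without a change against Irf5, and Irf3 above Irf7 and Irf5 above Irf2 in WT cells at day 12. With CPM as deposited the order was the same in all 4 groups.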
